A study of Mus musculus with 6 samples.

Results

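Nanog, Esrrb, Tfcp2l1, Tbx3, Nr5a2, Nr0b1 and Zfp42 encode 7 transcription regulators that mark or maintain the naive state of mouse embryonic stem cells (ESCs). They were chosen by name, as 7 of the 18857 genes that had a read in at least 1 library of the series, and each had reads in all 6 libraries. PolyA RNA was measured in 1 library per group, and all groups were KH2 ESCs of a C57BL/6 x 129 background. The wild type groups were untreated KH2 cells and KH2 cells given PD0325901 for 48 hours. PD0325901 inhibits Mek, the kinase that activates the Erk kinases. The other 4 groups had the genotype iErk1; Erk KO. One was kept with doxycycline (Dox), and the others had it withdrawn 48 or 96 hours earlier. The last of the 4 had 96 hours of withdrawal, with PD0325901 over its final 48 hours. The labels give no dose of PD0325901, no number of clones and no statement on feeder cells. The design compares treated with untreated cells in each genotype, and withdrawal of Dox with its presence, to read the effects of Mek inhibition and of Erk loss.

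Naive ESCs resemble the epiblast before implantation, and a network of factors around Pou5f1 and Sox2 keeps them there. Fgf signalling through Mek and Erk moves them towards the formative state, and Mek inhibition is a standard way to hold them in the naive state. Nanog is a homeodomain factor, Esrrb and Nr5a2 are orphan nuclear receptors that bind DNA as monomers, Tfcp2l1 is a CP2-family factor downstream of LIF and Stat3, and Tbx3 is a T-box factor. Nr0b1 is an atypical nuclear receptor without the classical DNA-binding domain that acts largely as a corepressor. Zfp42, also called Rex1, is a zinc finger protein long used as a marker of the naive state.

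The libraries held between 9.05 and 9.95 times 1e6 uniquely mapped reads on genes, and 1 read on a 2 kb transcript equalled between 0.0502 and 0.0553 RPKM (reads scaled to 1 kb of transcript and to 1e6 reads of the library). Mapk3, the gene of Erk1, stood at 56.4 and 52.8 RPKM in KH2 cells, at 14.8 RPKM with Dox, at 6.86 and 6.75 RPKM at 48 and 96 hours of withdrawal, and at 9.18 RPKM with the inhibitor added. Markers of ESCs were present throughout, with Pou5f1 between 539 and 769 RPKM and Sox2 between 166 and 271 RPKM. A list of 15 fibroblast markers summed to 351 RPKM in untreated KH2 cells. In the engineered line without the inhibitor it summed to between 102 and 156 RPKM. With the inhibitor it summed to 2145 RPKM in KH2 cells and to 762 RPKM in the engineered line. None of the 15 was at 0 reads in any library. In these bulk libraries fewer cells of a type and less RNA per cell cannot be told apart. With 1 library per group the ratios below compare libraries, and their 95% intervals cover counting error only.

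The start sites of 6 of the 7 genes had an entry in the RefSeq promoter table (GRCm38.p6), and Tbx3 did not. The sequences of 4 are shown because their genes behaved differently below. On library totals, Nanog had its lowest level in Dox-maintained cells and Nr0b1 its highest. For Nanog the order against untreated KH2 cells depends on the scaling. Tfcp2l1 had the lowest ratio between 96 and 48 hours without Dox, and the ratios of Zfp42 with the inhibitor were the nearest to 1. Each is the 250 bases before the first listed start, read 5′ to 3′ on the gene's strand, with capitals for an octamer core (TTTGCAT), a Sox site (ACAATG) or a TATA box (TATAAA).
Nanog (chr6:122707239-122707488, plus strand): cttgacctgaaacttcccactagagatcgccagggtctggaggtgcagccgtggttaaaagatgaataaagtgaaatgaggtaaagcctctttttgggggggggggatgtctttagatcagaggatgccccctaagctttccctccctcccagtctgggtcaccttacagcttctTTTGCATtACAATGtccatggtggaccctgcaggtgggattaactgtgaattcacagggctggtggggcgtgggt
Zfp42 (chr8:43307010-43307259, minus strand): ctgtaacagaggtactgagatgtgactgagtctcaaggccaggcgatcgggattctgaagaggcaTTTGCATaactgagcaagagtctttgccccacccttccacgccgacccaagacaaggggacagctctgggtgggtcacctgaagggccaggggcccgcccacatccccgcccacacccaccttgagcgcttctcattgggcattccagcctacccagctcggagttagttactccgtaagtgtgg
Tfcp2l1 (chr1:118627695-118627944, plus strand): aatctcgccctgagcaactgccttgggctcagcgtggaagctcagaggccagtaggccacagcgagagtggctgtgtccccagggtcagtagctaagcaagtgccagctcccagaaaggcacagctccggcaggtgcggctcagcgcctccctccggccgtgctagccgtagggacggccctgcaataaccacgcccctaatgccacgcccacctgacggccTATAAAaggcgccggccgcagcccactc
Nr0b1 (chrX:86191525-86191774, plus strand): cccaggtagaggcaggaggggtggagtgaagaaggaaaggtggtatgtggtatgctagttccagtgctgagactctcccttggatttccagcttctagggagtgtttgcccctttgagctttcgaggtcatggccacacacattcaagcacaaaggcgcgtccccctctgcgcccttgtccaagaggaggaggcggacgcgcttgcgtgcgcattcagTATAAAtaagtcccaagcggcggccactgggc
On either strand, TTTGCAT was found in 4.12% of the 32851 promoters of the table over the same 250 bases, ACAATG in 10.7% and TATAAA in 12.4%. The Nanog window held an octamer core at −75 and a Sox site at −67, counted to the first base of the match from the start site, with 1 base between them. Zfp42 held an octamer core at −185, and Tfcp2l1 and Nr0b1 each held a TATA box, at −28 and −32. The letters AAGGTCA of the site bound by Esrrb and Nr5a2, present in 4.08% of promoters, were in none of the listed windows of the 6 genes. A Stat site (TTCNNNGAA, 7.02% of promoters) lay at −178 in the first window of Esrrb, the only match to it among these windows. Such matches are descriptions of sequence and do not show binding.

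**Figure D1:**
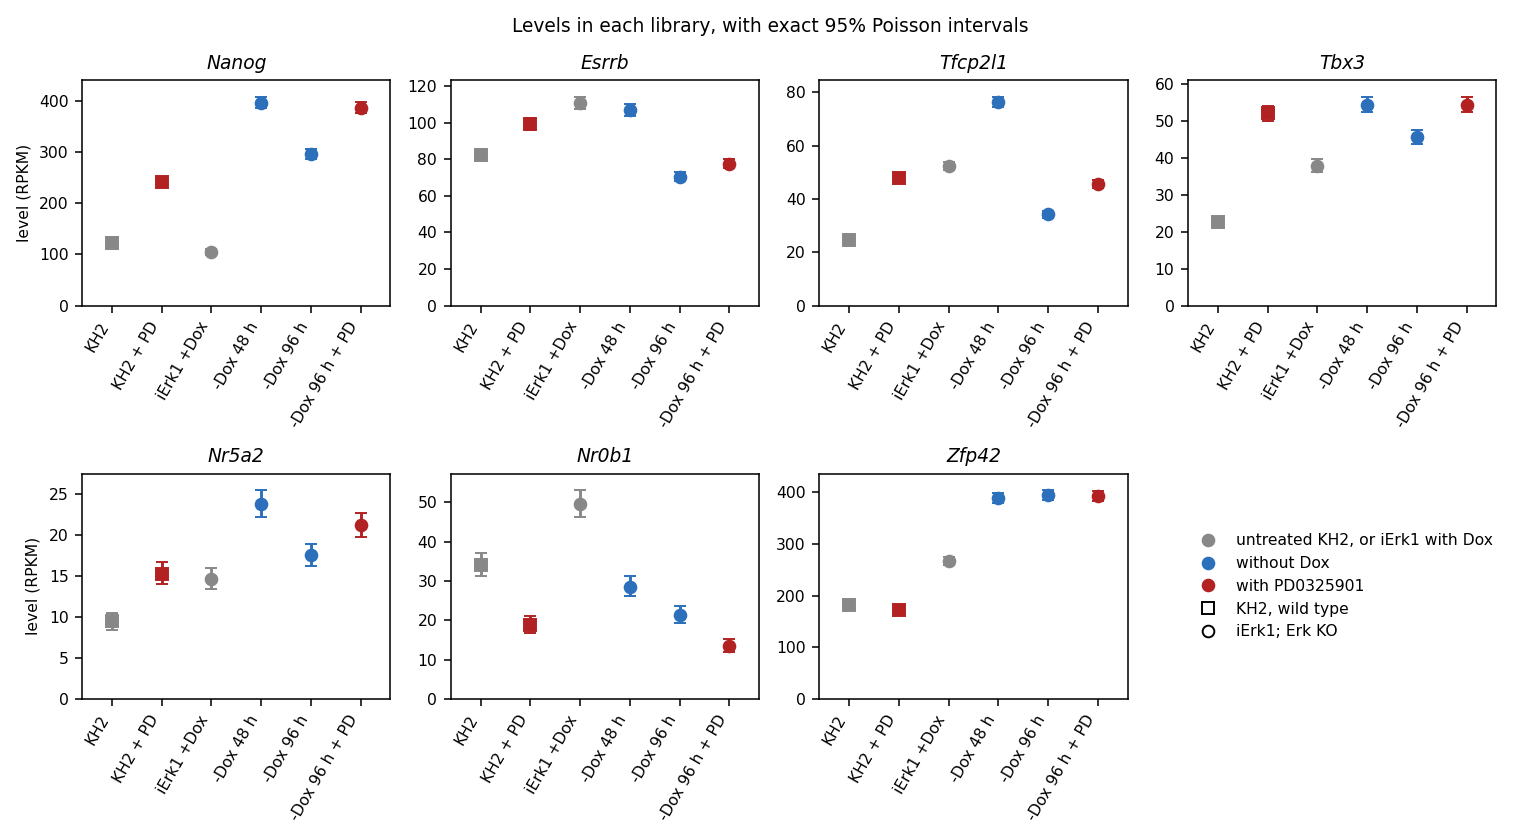
Level of each gene in RPKM on a linear axis from 0, by library, with exact 95% Poisson intervals of its reads (grey, untreated KH2 or the engineered line with Dox; blue, without Dox; red, with PD0325901; squares, KH2; circles, iErk1; Erk KO). On library totals Nanog was lowest with Dox at 105 RPKM and highest after 48 hours without Dox at 397 RPKM. Its order between the library with Dox and untreated KH2 cells reverses with TMM scaling. Nr0b1 was highest with Dox at 49.6 RPKM.

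Nanog and Zfp42 were the most abundant of the 7 per kilobase in 5 of the 6 libraries. Nanog had 122 RPKM in untreated and 242 RPKM in treated KH2 cells, 105 RPKM with Dox, 397 and 296 RPKM after 48 and 96 hours without Dox, and 387 RPKM in the treated cells without Dox. Zfp42 had 182 and 171 RPKM in KH2 cells, 268 RPKM with Dox, 388 and 395 RPKM after 48 and 96 hours without Dox, and 392 RPKM with the inhibitor. The 3 libraries without Dox were thus the highest for both genes, and for Zfp42 the intervals of neighbours in that order overlapped. In the library with Dox, Esrrb took second place at 111 RPKM, although its interval overlapped that of Nanog.

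Esrrb varied least among the libraries, by 1.57-fold between the lowest and the highest. Its levels were 82.4 and 99.3 RPKM in KH2 cells, 111 RPKM with Dox, 107 and 70.5 RPKM after 48 and 96 hours without Dox, and 77.6 RPKM with the inhibitor. On library totals the lowest value was thus that of untreated cells after 96 hours without Dox. TMM scaling factors were 1.18 for untreated KH2 cells and 0.958 for the 96 hour library. Which of these libraries is the lowest for Esrrb thus depends on the scaling. Tfcp2l1 had 24.8 and 48.0 RPKM in KH2 cells, 52.2 RPKM with Dox, 76.4 and 34.2 RPKM after 48 and 96 hours without Dox, and 45.7 RPKM with the inhibitor. The 48 hour library stood above the other 5, and untreated KH2 cells had the lowest value.

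Tbx3 had 22.6 and 52.1 RPKM in KH2 cells, 37.9 RPKM with Dox, 54.5 and 45.6 RPKM after 48 and 96 hours without Dox, and 54.5 RPKM with the inhibitor. Nr5a2, the least abundant of the 7 in all but the treated library without Dox, had 9.43 and 15.3 RPKM in KH2 cells, 14.6 RPKM with Dox, 23.8 and 17.5 RPKM after 48 and 96 hours without Dox, and 21.2 RPKM with the inhibitor. For both genes untreated KH2 cells were the lowest library and the 48 hour library the highest. The Tbx3 interval of that library overlapped those of both treated libraries, and the Nr5a2 interval that of the treated cells without Dox.

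Nr0b1 ran the other way. It had 34.1 and 18.8 RPKM in KH2 cells, 49.6 RPKM with Dox, 28.5 and 21.3 RPKM after 48 and 96 hours without Dox, and 13.5 RPKM in the treated cells without Dox. On library totals the 2 highest libraries were those with neither Dox withdrawal nor inhibitor, and their intervals did not overlap any other. TMM scaling factors were 1.18 for untreated KH2 cells and 0.878 for the 48 hour library. The order of untreated KH2 cells and that library for Nr0b1 thus depends on the scaling. Reads covered between 88.8% and 99.7% of the gene length for the 7 genes over all libraries. Nanog and Zfp42 have processed pseudogenes in the GENCODE M21 annotation, so their counts of uniquely mapped reads are uncertain where the copies are alike. Tbx3 overlaps Tbx3os1 on the opposite strand, and no source used here says that strand was kept, so reads of this pair cannot be told apart. Tfcp2l1 likewise overlaps Gm22094 and Gm28882 on the opposite strand, and it overlaps Gm23497 on its own.

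In KH2 cells, Mek inhibition went with higher Tbx3 and with ratios near the 2-fold limit for Nanog and Tfcp2l1, while Nr0b1 was lower and Zfp42 was nearly level. The size rule asked for 4 things: a 2-fold difference, as log2(RPKM + 0.5) of 1 or more in either direction, a level of 1 RPKM or more where the gene was higher, 20 or more reads in the pair, and an exact 95% interval without 1. Tbx3 was the 1 gene of the 7 that passed as higher, against 3.86% of the 12787 genes tested, and 0 passed as lower, against 1.22% (5.08% in either direction). It had 1045 reads untreated and 2398 treated, a fold of 2.31 (interval 2.14 to 2.48). Nanog, with 1505 and 2970 reads, had a fold of 1.98 (1.86 to 2.11), and Tfcp2l1, with 2090 and 4032 reads, one of 1.94 (1.84 to 2.04). The folds of Nr5a2 and Esrrb were 1.62 (1.40 to 1.87) and 1.21 (1.15 to 1.26). Nr0b1 stood at 0.551 of its untreated level (0.478 to 0.635), with 556 and 305 reads. Zfp42 stood at 0.940 (0.893 to 0.990). The median log2 ratio of the 7 was 0.67, against −0.02 over all genes tested.

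In the Erk KO cells without Dox the same inhibitor went with ratios nearer to 1. Each lay on the same side of 1 as in KH2 cells, although the Zfp42 interval included 1. By the size rule 0 of the 7 passed in either direction, against 1.93% of 11920 genes (1.34% higher and 0.587% lower). Nanog had 4002 reads untreated and 5158 treated, a fold of 1.31 (1.25 to 1.36). Tfcp2l1 was close to it at 1.34 (1.27 to 1.4), and Nr5a2, Tbx3 and Esrrb had folds of 1.21, 1.19 and 1.1, all with intervals above 1. Nr0b1 stood at 0.633 of its untreated level (0.536 to 0.746), with 381 and 238 reads, and Zfp42 at 0.995 (0.962 to 1.03). The untreated library here already had high Nanog, at 296 RPKM, above the 242 RPKM of treated KH2 cells. The median log2 ratio of the 7 was 0.25, against 0.01 over all genes.

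**Figure D2:**
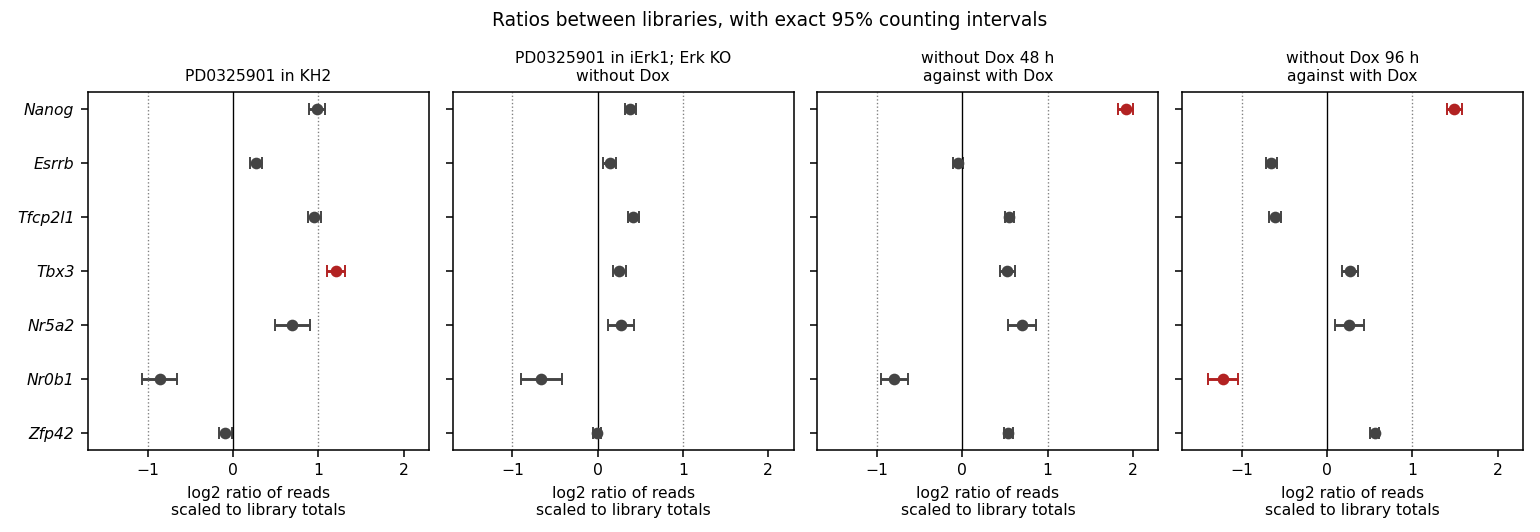
Log2 ratio of reads scaled to library totals for each gene in 4 comparisons of 2 libraries, with exact 95% counting intervals; dotted lines mark 2-fold and red points passed the size rule. Nanog passed only in the comparisons with and without Dox, Tbx3 only in KH2 cells with PD0325901, and Nr0b1 lay left of 0 in all 4.

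A change with PD0325901 common to both genotypes was tested over the 4 libraries of these pairs, with edgeR's quasi-likelihood test, genotype as a block and Benjamini-Hochberg adjustment over 14782 genes. Of the 7 genes 4 rose and 1 fell, where 6.05% of all genes were called higher and 2.92% lower (8.97% in either direction). Tbx3 rose by 0.72 on the log2 scale (SE 0.162, adjusted p 0.0104 by edgeR) and Tfcp2l1 by 0.68 (SE 0.118, adjusted p 0.00160). Nanog rose by 0.68 (SE 0.124, adjusted p 0.00246 by edgeR) and Nr5a2 by 0.47 (SE 0.126, adjusted p 0.0293). Nr0b1 fell by 0.76 (SE 0.128, adjusted p 0.00128 by edgeR). Esrrb, at 0.20 (SE 0.0926, adjusted p 0.204 by edgeR), and Zfp42, at −0.05 (SE 0.0874, adjusted p 0.802), did not pass. Each of the 7 genes, called or not, had the same direction in both pairs. These pairs are the data of the test, so this adds no support to the calls. The fit has 1 residual degree of freedom and a median of 13.8 prior ones, so its spread is mostly borrowed from other genes. DESeq2 called 3 of the 7, Nanog, Tfcp2l1 and Nr0b1, and gave adjusted p-values of 0.744 for Tbx3 and 0.336 for Nr5a2, while edgeR without the block or over all 6 libraries called 0.

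**Figure D3:**
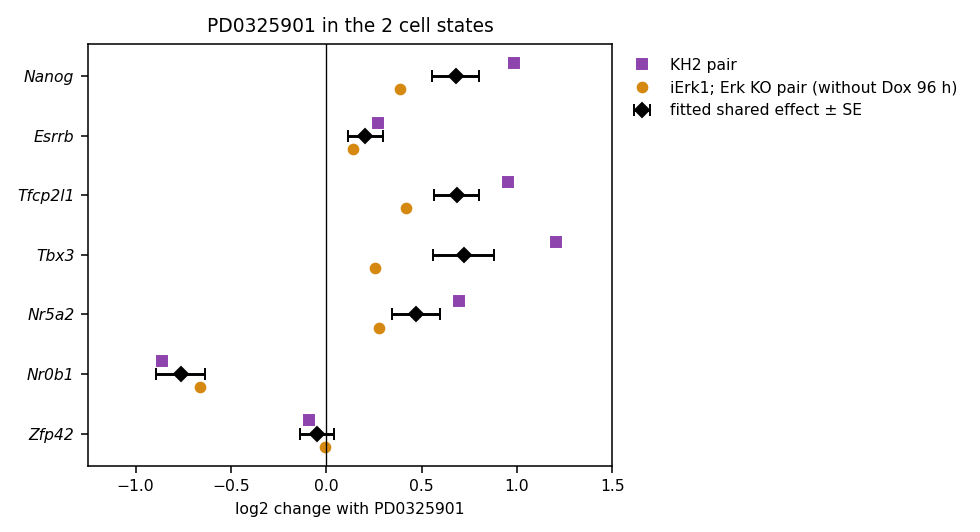
Log2 change with PD0325901 for each gene: purple squares are the KH2 pair, orange circles the iErk1; Erk KO pair without Dox for 96 hours, and black diamonds the fitted shared change with its SE. The 2 pairs lie farthest apart for Tbx3, at 1.20 and 0.26, and close together for Zfp42 and Esrrb.

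The inhibitor's ratio was smaller in the Erk KO pair for the 5 genes that were higher with it. On the log2 scale of reads, the Erk KO minus KH2 difference was −0.95 for Tbx3 (95% counting interval −1.08 to −0.82), −0.60 for Nanog (−0.71 to −0.50) and −0.54 for Tfcp2l1 (−0.64 to −0.44). It was −0.42 for Nr5a2 (−0.67 to −0.17) and −0.13 for Esrrb (−0.23 to −0.03). The intervals for Nr0b1 (0.20, −0.11 to 0.51) and Zfp42 (0.08, −0.01 to 0.17) included 0. A test of this difference by edgeR over all 6 libraries, in which both untreated withdrawal times form 1 state, called 0 of the 7 and 0 of 15103 genes, that is 0% of them, although 129 had an unadjusted p below 0.05. DESeq2 also called 0, and 30 genes had an unadjusted p below 0.05. By edgeR, Tbx3 had a difference of −1.13 (SE 0.398) and Tfcp2l1 one of −1.30 (SE 0.607), both with an adjusted p of 0.9998 by edgeR. The sign for Nr0b1 turned to −0.08 there.

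The fibroblast markers moved with the inhibitor in both pairs. Of the 15 listed, 10 passed as higher in KH2 cells and 10 in Erk KO cells, and their share of library reads went from 0.148% to 0.955% and from 0.0638% to 0.334%. Collagen genes led in KH2 cells, with log2 ratios of 3.18 for Col1a1, 2.74 for Col3a1 and 2.64 for Col1a2. The part of these cells or genes in the changes of the 7 factors was not tested. The share of reads on the 11 core pluripotency genes went from 0.513% to 0.350% in the KH2 pair and from 0.512% to 0.463% in the Erk KO pair. Of these genes, which mark the ESCs, Pou5f1 went from 769 to 539 RPKM in the KH2 pair (fold 0.700, 0.678 to 0.723) and from 600 to 575 RPKM in the Erk KO pair. Sox2 had 166 and 170 RPKM in the KH2 pair and 263 and 271 RPKM in the Erk KO pair. The median log2 ratio of the 11 was −0.64 in KH2 cells and −0.22 in Erk KO cells.

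Withdrawing Dox for 48 hours went with a Nanog level 3.78-fold higher (3.56 to 4.01), from 1343 to 5230 reads. Nanog was the 1 gene of the 7 that passed as higher, against 2.77% of 11386 genes, and 0 passed as lower, against 2.13% (4.89% in either direction). Nr5a2 (fold 1.62, 1.45 to 1.82), Tfcp2l1 (1.46, 1.41 to 1.52), Zfp42 (1.45, 1.4 to 1.51) and Tbx3 (1.44, 1.36 to 1.53) were each higher by less than 2-fold. Esrrb, at 0.964 (0.925 to 1.005), had an interval that included 1. Nr0b1 stood at 0.576 of its level with Dox (0.514 to 0.644), with 837 and 497 reads. The median log2 ratio of the 7 was 0.54, against −0.03 over all genes. In this comparison the fibroblast list summed to 104 and 102 RPKM, with 0 markers passing as higher and 1, Twist1, as lower.

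After 96 hours without Dox, Nanog was 2.82-fold above its level with Dox (2.65 to 3.0) and Nr0b1 was at 0.430 of it (0.380 to 0.486). These were the 1 higher and 1 lower gene of the 7, against 7.62% and 2.07% of 11804 genes (9.68% in either direction). Zfp42 had a fold of 1.47 (1.42 to 1.53), Tbx3 one of 1.21 (1.13 to 1.28) and Nr5a2 one of 1.20 (1.06 to 1.35). Esrrb and Tfcp2l1 were now below their level with Dox, at 0.636 (0.607 to 0.666) and 0.655 (0.626 to 0.686), without passing. The fibroblast list summed to 104 and 156 RPKM here, with 2 markers passing as higher, Dcn at 3.04 and 12.6 RPKM and Lox at 9.64 and 22.9 RPKM, and 0 as lower, and their part in these ratios was not tested. Both comparisons use the same library with Dox, and the 96 hour library is also the untreated one of the Erk KO pair, so these comparisons are not independent.

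Between 48 and 96 hours without Dox, 6 of the 7 genes had lower levels. Tfcp2l1 passed, at 0.447 of its 48 hour level (0.429 to 0.467), with 6887 and 3160 reads, as the 1 lower gene of the 7 against 0.469% of 11722 genes, and 0 were higher, against 4.55% (5.02% in either direction). Esrrb stood at 0.660 (0.630 to 0.691), Nr5a2 at 0.736, Nanog at 0.746 (0.716 to 0.777), Nr0b1 at 0.747 and Tbx3 at 0.837. Zfp42, at 1.02 (0.982 to 1.05), had an interval that included 1. Over the same time 5 of 10 MAPK targets passed as higher, with Spry4, a feedback inhibitor of receptor signalling, at 1.54 and 6.41 RPKM, and Lef1, 1 of 3 formative genes that passed, at 1.47 and 9.72 RPKM.

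The line kept with Dox also differed from wild type KH2 cells. Tfcp2l1 was 2.11-fold higher (2.0 to 2.22) and passed as the 1 higher gene of the 7, against 2.76% of 12421 genes, and 0 were lower, against 21.4% (24.2% in either direction). Tbx3 had a fold of 1.67, Nr5a2 one of 1.55, Zfp42 one of 1.47, Nr0b1 one of 1.45 and Esrrb one of 1.34, and Nanog was at 0.862 (0.800 to 0.928). The median log2 ratio over all genes was −0.37 here, with 343 genes higher and 2662 lower, whereas TMM scaling moved it to 0.02 with 1006 higher and 1419 lower. On that scaling Nanog had a log2 ratio of 0.19 in place of −0.21, so its direction is not settled. Tbx3 passed as well on that scaling, at 1.13. On library totals the fibroblast list summed to 351 RPKM in untreated KH2 cells and to 104 RPKM with Dox. Of its markers 0 passed as higher and 8 as lower, and their part in these ratios was not tested.

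Between the treated libraries, the Erk KO cells had 2.29-fold more Zfp42 than KH2 cells (2.19 to 2.39), 392 against 171 RPKM. It was the 1 higher gene of the 7, against 3.73% of 12642 genes, and 0 were lower, against 15.6% (19.4% in either direction). Nanog had a fold of 1.60 (1.53 to 1.67) and Nr5a2 one of 1.39, while Tbx3, at 1.04 (0.989 to 1.1), had an interval that included 1. Esrrb (0.781), Nr0b1 (0.718) and Tfcp2l1 (0.951) were lower in the Erk KO library. The fibroblast list summed to 2145 RPKM in treated KH2 cells and to 762 RPKM in treated Erk KO cells. Of its markers 0 passed as higher and 7 as lower, and their part in these ratios was not tested. The median over all genes was −0.27 and TMM moved it to 0.03, with a split of 959 higher and 1077 lower in place of 472 and 1975, and the log2 ratio of Tfcp2l1 from −0.07 to 0.23.

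Genes of the wider network were read as lists, which were chosen with earlier results of these data known. Among 12 other naive-state genes, 3 passed as higher in KH2 cells with the inhibitor, Spic (log2 ratio 2.14), Prdm14 (1.67) and Jam2 (1.41), and 1 as lower, Gbx2 (−2.53). Spic and Prdm14 encode transcription regulators. In Erk KO cells 0 passed as higher and 1, Gbx2 (−1.49), as lower. After 48 hours without Dox 6 were higher, led by Spic (3.76), Dppa3 (3.37) and Prdm14 (1.93), and Gbx2 (−2.51) was lower. After 96 hours 4 were higher, with Dppa3 at 3.04, and 2 were lower, Gbx2 (−2.07) and Klf5 (−1.20). The shared test by edgeR called 6 of the 12 higher and 1 lower, against 2 and 1 by DESeq2 and 0 and 1 by edgeR on all 6 libraries.

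Most core and formative genes called with the inhibitor were lower. Among the 11 core pluripotency genes Utf1, a chromatin-associated factor of undifferentiated cells, passed as lower in KH2 cells (−1.45). In the shared test by edgeR 6 of the 11 fell and 0 rose, against 5 and 0 by DESeq2 and 0 and 0 by edgeR on all 6 libraries. Of 12 formative genes, which mark cells leaving the naive state, 7 passed as lower in KH2 cells, led by Tcf15 (−2.09), Dnmt3b (−1.85) and Pou3f1 (−1.62), and 2 in Erk KO cells, Pou3f1 (−1.42) and Dnmt3a (−1.12). The shared test by edgeR called 6 of the 12 lower and 1, Cdh2 (0.68), higher, against 4 and 0 by DESeq2 and 0 and 0 by edgeR on all 6 libraries. After 96 hours without Dox 4 formative genes were higher and 1 lower, with Otx2 at 2.05, Lef1 at 1.87 and Tcf15 at −1.71. Of 8 regulators of exit from the naive state, 0 passed in either pair or after Dox withdrawal. Among them Tcf7l1, a repressor of Nanog and Esrrb, was near the 2-fold limit after 48 hours without Dox. It had 35.8 RPKM with Dox and 72.0 RPKM at that time. In the shared test edgeR called Tcf7l1 higher (0.39) and Rbpj lower (−0.37). DESeq2 and edgeR on all 6 libraries called 0 of the 8.

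MAPK targets served as a check of the pathway. Of 10 listed, 6 passed as lower in treated KH2 cells, 4 in treated Erk KO cells, 10 after 48 hours without Dox and 8 after 96 hours, and 0 were higher in these 4 comparisons. Spry4 had log2 ratios of −4.21, −3.45, −3.58 and −1.82 in that order. In the shared test by edgeR 8 of the 10 fell and 2 rose, Fos by 0.89 and Egr1 by 0.47. DESeq2 called 6 lower and 1 higher, and edgeR on all 6 libraries 1 lower and 0 higher. Of 10 listed relatives of the 7 factors, 5 reached the limits on reads and RPKM in each of these comparisons and 0 passed. Among them Yy1, a relative of Zfp42, had between 44.7 and 84.2 RPKM and Esrra, a relative of Esrrb, between 3.78 and 14.4 RPKM.

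**Figure D4:**
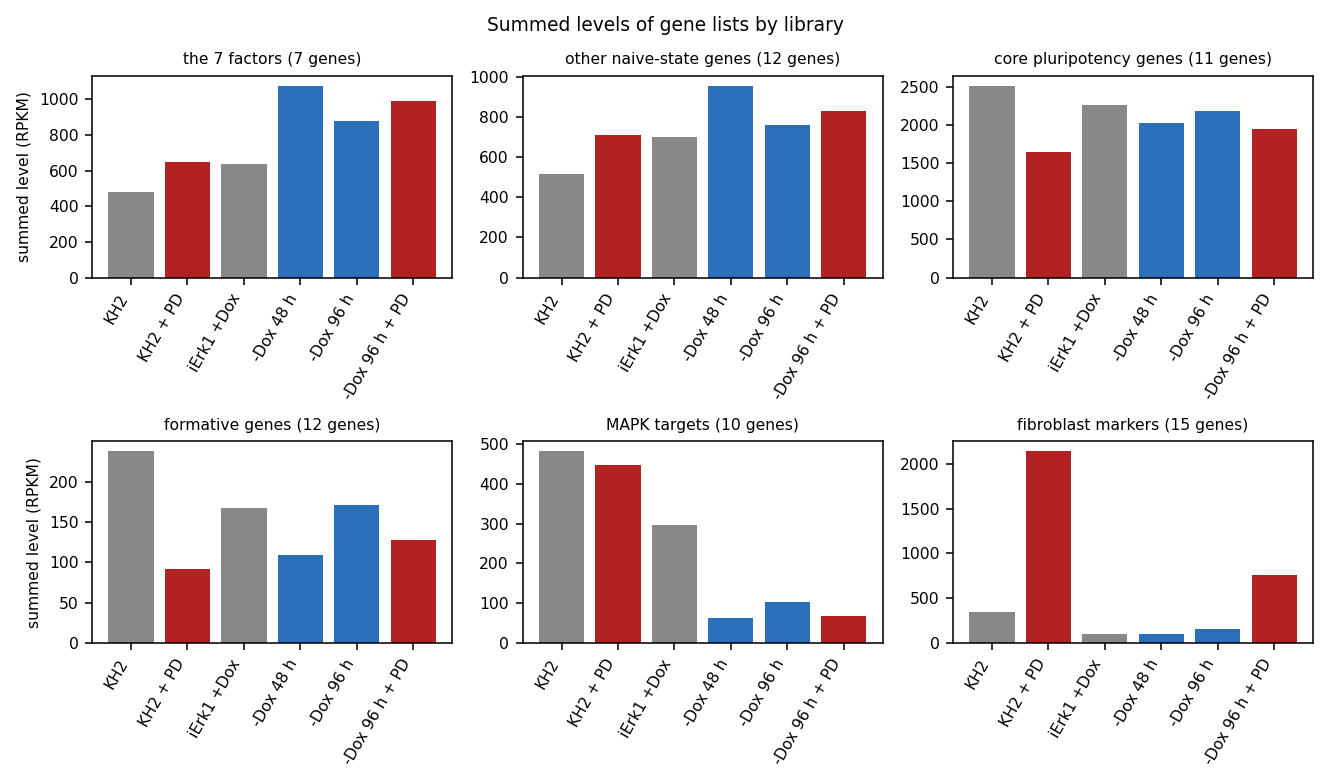
Summed RPKM of 6 gene lists in each library, as bars from 0 (grey, untreated KH2 or engineered line with Dox; blue, without Dox; red, with PD0325901). The 7 factors sum to between 478 and 1076 RPKM, highest after 48 hours without Dox, and the fibroblast markers stand out in the 2 treated libraries.

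Markers of 2 other early cell types were low. The 10 primitive endoderm markers summed to between 24.2 and 75.1 RPKM, and 6 of them passed as lower after 96 hours without Dox, with Gata6, the factor that opposes Nanog in the early embryo, at 8.32 and 1.20 RPKM. The 6 trophoblast markers summed to between 5.59 and 17.5 RPKM. Elf5, a defining gene of that lineage, was at 0 reads in the library with Dox and at most 0.199 RPKM elsewhere. Of the 6, 4 were at 1 RPKM or more in untreated KH2 cells and after 96 hours without Dox. Against the library with Dox, 2 passed as higher at 96 hours and 0 as lower, where 7.62% and 2.07% of all genes did. Their sum was 5.59 RPKM with Dox and 12.0 RPKM at 96 hours.

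The pattern of each of the 7 over the 6 libraries was compared with 12574 other genes with at least 100 reads in all, as the root mean square difference of log2(RPKM + 0.5) after centring each gene on its mean. Tbx3 and Nr5a2 were the most alike of the 7, at 0.18, and Nanog and Nr0b1 the least alike, at 1.28. Genes with a provisional Gm, Rik or LOC name are not named here. For Nanog the nearest other genes were Pla2g4e (0.081), a phospholipase gene with at most 1.98 RPKM, then AA467197 (0.132) and Cd4 (0.144). Those of Esrrb were Sema4b (0.060), Ctdnep1 (0.065) and Jup (0.072), which encodes plakoglobin of cell junctions. Tfcp2l1 had no such gene closer than B4galnt4 (0.220), followed by Aff1 (0.225) and Ggh (0.240). Tbx3 was nearest to Phf11a (0.124), Capn6 (0.134) and Cdkn1b (0.141), the gene of a cell cycle inhibitor. Next to Nr5a2 stood Slc6a6 (0.127), Sod2 (0.127) and Enoph1 (0.131). Nr0b1 was nearest to Smarca1 (0.109), Vat1l (0.113) and Lin28a (0.150), the RNA-binding pluripotency factor, which had 90.5 and 50.2 RPKM in KH2 cells and 109 RPKM with Dox. Zfp42 was nearest to Stmn1 (0.074), Calr (0.087) and Chn1 (0.090). Like Pla2g4e, Cd4, Capn6 and Vat1l were low, at most 1.10, 1.22 and 1.60 RPKM. For genes this low the added 0.5 narrows the differences, so likeness to them does not mean equal fold changes. Cd4 had 0.0343 RPKM with Dox and 1.10 RPKM after 48 hours without it, against 105 and 397 RPKM for Nanog.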

How the data were processed

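PolyA RNA of 6 libraries was sequenced as single reads of 50 bases, per the labels' protocols. The deposited count of a gene is its number of uniquely mapped reads, per the file headers. The deposited RPKM were computed by the authors from each read count, the gene length and the library total. This relation was checked for each value. The deposited coverage is the percent of the gene length covered by reads. The submitters' processing notes name the build mm9. Which aligner and annotation were used is not given in the sources used here. A gene missing from 1 table was set to 0 there. Files were joined by gene ID over 18857 genes, of which 18805 took symbols from RefSeq (GRCm38.p6).

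The 7 genes, lists and comparisons were chosen with earlier results of these data known. Named genes were the 7, Mapk3, up to 3 passing genes per list and comparison, counts of 5 or fewer, and the 3 most alike genes. Some genes that this rule names are not reported here. Intervals of ratios are exact Clopper-Pearson intervals at 95% of the reads' shares, scaled by library totals, and reads carried no molecular identifiers. A floor of 3 reads was listed beside counts of 0, which stayed 0 in all ratios, sums and tests. The tests used edgeR 4.0.16 (at least 20 reads, TMM, adjusted p under 0.05) and DESeq2 1.42.0, in R 4.3.3, and the scripts were tested on simulated data. Other scalings, pseudocounts and filters were tried.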

Additional observations from a re-analysis of the deposited data

How the results depend on the processing

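Other scalings, pseudocounts of 0.1 and 1, and no minimum of reads kept the number of the 7 genes that passed within 1.5 times in 6 of the 7 comparisons. For the line with Dox against KH2 it went from 1 to 2 with TMM and to 4 with median-of-ratios factors. Zfp42 reversed between 48 and 96 hours without Dox, to −0.10 with TMM and −0.12 with median-of-ratios factors. Nanog reversed for the line with Dox against KH2, to 0.19 and 0.24, and Tfcp2l1 between the treated libraries, to 0.23 and 0.24, in that order. A pseudocount of 1 lowered the genes passing between 48 and 96 hours from 588 to 349. For the shared test, 1326 genes called became 441 with DESeq2, 118 on all 6 libraries and 0 without the block (270 at an unadjusted p under 0.05), against 1930 with RLE scaling. Of the 7 genes 5 were called, 3 with DESeq2, 0 on all 6 libraries and 0 without the block, and on all 6 libraries Esrrb reversed to −0.041. The test of the difference called 1 gene with RLE scaling and 2 without a minimum of reads, and 0 of them were among the 7. The causes were not tested. No analysis paired by replicate number was possible because each group has 1 library, and the block of the shared test is the genotype.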
